A study of Homo sapiens with 24 samples.

Results

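The genes of the proteasome, its activators and its assembly factors were followed in THP-1 macrophage-like cells given S-(1,2-dichlorovinyl)-L-cysteine (DCVC), which forms from trichloroethylene, and bacterial lipopolysaccharide (LPS). Members were the named genes of the deposited table whose symbol is PSM, a letter from A to G and a number, which gave 47 of 38735 named genes. Pseudogenes (42 symbols), antisense genes (5 symbols) and PSMC3IP and PSME3IP1, whose symbols go on after the number, were not members. THP-1 is an established human monocytic leukaemia line, here turned macrophage-like with 100 nM of the phorbol ester PMA for 24 h in every group. The DCVC_LPS group had 24 h in 5 µM DCVC, then fresh medium and 4 h of LPS at 100 ng/mL, the LPS group medium and then LPS, the DCVC group DCVC without LPS, and the Control group medium only. Each of the 4 groups held 6 libraries, lettered A to F, and the series title asks whether DCVC inhibits LPS-induced inflammatory transcription in a macrophage model. Whether the 6 libraries of a group are separate cultures is not stated, and p-values therefore rest on a spread between libraries that may be technical.

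The proteasome degrades proteins that carry ubiquitin. Its core is a barrel of alpha and beta rings, in which the beta subunits PSMB5, PSMB6 and PSMB7 carry the chymotrypsin-like, caspase-like and trypsin-like activities, and a regulatory cap of ATPases, base and lid subunits recognises and unfolds the substrate. In cells exposed to interferon, and in many immune cells at rest, PSMB8, PSMB9 and PSMB10 take the places of PSMB5, PSMB6 and PSMB7, and the resulting immunoproteasome yields more peptides that fit MHC class I. PSME1 and PSME2 form the PA28 cap that opens the core without ATP, and they are induced together with the immunoproteasome subunits.

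Values are normalized counts, that is, reads of a gene over the factor of its library. Libraries held 18478618 to 30107819 reads of named genes. The normalized totals differed between groups, with medians of 21911142 in DCVC_LPS, 29729743 in LPS, 17815036 in DCVC and 21169852 in Control libraries, so each change is also given after scaling every library to an equal total where that alters its direction or call. The equal total moved the median log2 change of all 13900 tested genes to -0.50, against -0.03 on the deposited scale, in LPS minus Control, and to 0.36, against -0.07, in DCVC_LPS minus LPS. 9 of 11 macrophage markers averaged over 1000 normalized counts in Control, while CD68 averaged 5.28 and MRC1 85.2, and all T cell and epithelial markers stayed at or below 6.09 in every library. CD14, a co-receptor for LPS, averaged 30.4 in DCVC_LPS, 176 in LPS, 289 in DCVC and 2520.4 in Control libraries, and its part in the results was not tested.

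DCVC separated the immunoproteasome subunits from the constitutive ones, with and without LPS. The within-library log2 ratio of PSMB8 to its constitutive counterpart PSMB5 had lowest, median and highest values of -0.77, -0.70 and -0.26 in DCVC_LPS, 0.66, 0.89 and 1.25 in LPS, -0.21, -0.13 and 0.04 in DCVC and 0.91, 0.97 and 1.34 in Control libraries. Every DCVC_LPS library lay below every LPS library, every DCVC library lay below every Control library, and the LPS and Control libraries overlapped. The ratio differed by -1.55 ± 0.12 in DCVC_LPS minus LPS, a fold of 0.341, and by -1.14 ± 0.08 in DCVC minus Control, a fold of 0.455 (mean difference ± SE). LPS without DCVC moved it by -0.12 ± 0.11 (exact permutation test, adjusted p = 0.346), whereas DCVC_LPS minus DCVC gave -0.53 ± 0.09 and again no overlap.

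The ratio of PSMB9 to PSMB6 was likewise lower in both groups with DCVC. Its lowest, median and highest log2 values were -0.89, -0.81 and -0.35 in DCVC_LPS, 0.79, 0.92 and 1.58 in LPS, -0.27, 0.03 and 0.24 in DCVC and 0.45, 0.78 and 1.54 in Control libraries. No DCVC_LPS library reached the lowest LPS library, and no DCVC library reached the lowest Control library. The differences were -1.71 ± 0.15 in DCVC_LPS minus LPS, -0.83 ± 0.18 in DCVC minus Control and -0.69 ± 0.12 in DCVC_LPS minus DCVC, while LPS minus Control gave 0.19 ± 0.21 (exact permutation test, adjusted p = 0.381). PSMB10 over PSMB7 had -1.59, -1.51 and -1.33 in DCVC_LPS, -1.03, -0.89 and -0.20 in LPS, -1.23, -1.09 and -0.98 in DCVC and -0.26, -0.12 and 0.19 in Control libraries. This ratio was lower after LPS as well, by -0.70 ± 0.15 in LPS minus Control (exact permutation test, adjusted p = 0.00974), and 5 of 6 LPS libraries lay below all Control libraries. It differed by -0.70 ± 0.13 in DCVC_LPS minus LPS and by -1.01 ± 0.08 in DCVC minus Control.

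All 3 ratios in DCVC_LPS minus LPS, DCVC minus Control and DCVC_LPS minus DCVC had the smallest p the 2-sided exact permutation test of 6 against 6 can give, 0.00216, adjusted over 15 ratio tests to 0.00361, and the direction held in 6 of 6 letters. That test does not pair libraries by letter. Paired by letter in an exact sign-flip test, each of them had p = 0.03125, adjusted to 0.0375. The LPS change of the ratio differed between cells with and without DCVC by -0.41 ± 0.07 for PSMB8 over PSMB5, -0.88 ± 0.12 for PSMB9 over PSMB6 and 0.31 ± 0.07 for PSMB10 over PSMB7. Each of these had its direction in 6 of 6 letters and an adjusted p of 0.0361 in an exact sign-flip test, whose smallest possible p is 0.03125. The sign-flip tests and the counts of 6 of 6 letters take the letters as independent. The test of 6 against 6, and the tests of single genes below, take the 6 libraries of a group as independent. Letters within the pairs A and B, C and D, and E and F deviated together, so all these p-values may be too small. A ratio within a library does not depend on the scaling, and it shows unequal change without saying which gene changed.

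**Figure D1:**
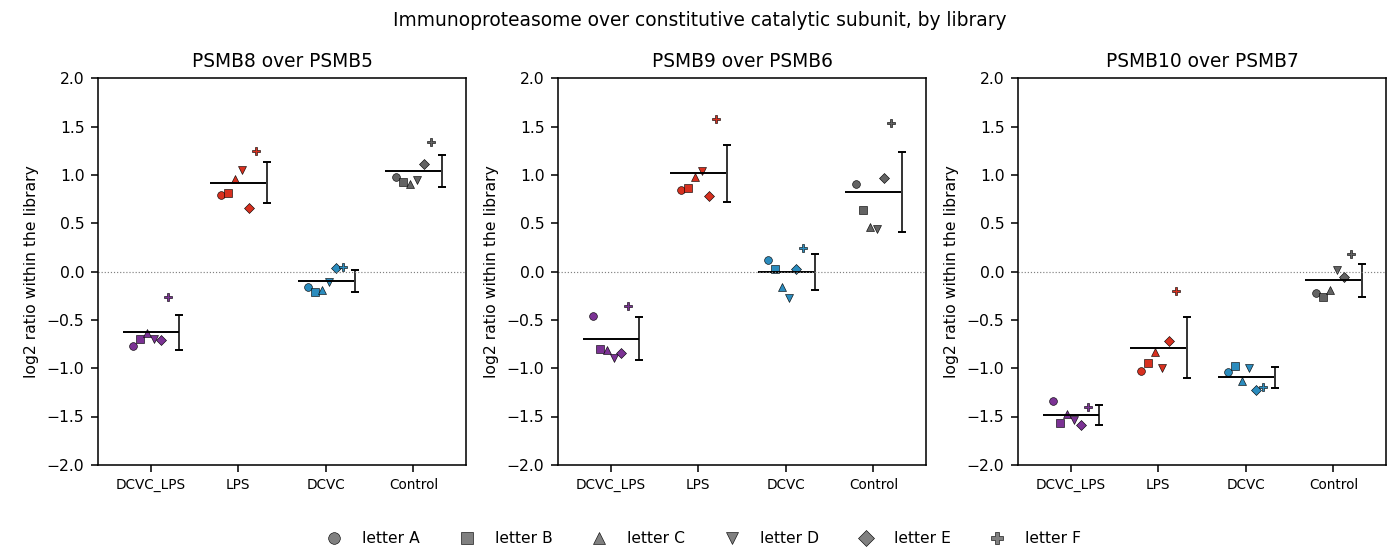
Each panel plots the log2 ratio of an immunoproteasome subunit to its constitutive counterpart in each of 24 libraries, by group on the x axis, with symbols for the letters, a line at the mean and a bar of 1 SD. DCVC_LPS and DCVC libraries lie below LPS and Control libraries for PSMB8 over PSMB5 and PSMB9 over PSMB6, and for PSMB10 over PSMB7 the Control libraries are highest by mean.

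PSMB8, the chymotrypsin-like immunoproteasome subunit, was lower with DCVC both with and without LPS. PSMB8 had 1573, 1621 and 2176 normalized counts in DCVC_LPS (lowest, median, highest), 3839, 4302 and 5118 in LPS, 1712, 1928 and 2044 in DCVC and 2867, 3061 and 3725 in Control libraries. The DCVC_LPS and LPS values did not overlap, nor did the DCVC and Control values or the LPS and Control values. PSMB8 fell in DCVC_LPS against LPS, by a log2 change of -1.36 ± 0.08 (limma adjusted p = 5.55e-13), and in DCVC against Control, by -0.75 ± 0.08 (limma adjusted p = 4.67e-08). It rose in LPS against Control by 0.45 ± 0.08 (limma adjusted p = 3.12e-05), but at equal totals this change was -0.03 and not called. DCVC_LPS minus DCVC gave -0.16 ± 0.08 (limma adjusted p = 0.0942), with the letter as a block the adjusted p was 0.0191, and at equal totals the change was -0.46 and called.

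PSMB9 had 566, 646 and 845 normalized counts in DCVC_LPS, 1360.2, 1584 and 2227 in LPS, 743, 933 and 1059.6 in DCVC and 784, 1086 and 1378 in Control libraries. The highest DCVC_LPS library lay below the lowest LPS library, whereas DCVC and Control libraries overlapped. PSMB9 fell by a log2 change of -1.28 ± 0.14 (limma adjusted p = 1.59e-08) in DCVC_LPS against LPS and by -0.43 ± 0.14 (limma adjusted p = 0.0113) in DCVC_LPS against DCVC. It rose by 0.64 ± 0.14 (limma adjusted p = 0.000215) in LPS against Control, a change of 0.17 and not called at equal totals, and DCVC minus Control gave -0.21 ± 0.14 (limma adjusted p = 0.205), or 0.04 and again not called at equal totals.

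PSMB10 had 857, 1016 and 1202 normalized counts in DCVC_LPS, 1035, 1107 and 1444 in LPS, 1009.8, 1111 and 1327 in DCVC and 1243, 1370.0 and 1487 in Control libraries, and every pair of groups that was compared overlapped. It fell by a log2 change of -0.27 ± 0.09 (limma adjusted p = 0.00578) in LPS against Control and by -0.27 ± 0.09 (limma adjusted p = 0.00886) in DCVC against Control, the second of which was -0.02 and not called at equal totals. DCVC_LPS minus LPS gave -0.16 ± 0.09 (limma adjusted p = 0.101), and at equal totals it was 0.27 and called as a rise. DCVC_LPS minus DCVC gave -0.16 ± 0.09 (limma adjusted p = 0.109), and at equal totals it was -0.46 and called. On the GENCODE 29 annotation 34.8% of the exon bases of PSMB10 also belong to the readthrough gene AC040162.1 on the same strand, and PSMB8 shares 20.6% with PSMB8-AS1 on the opposite strand, so their counts are uncertain to that extent.

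The constitutive catalytic subunits rose with DCVC, with and without LPS, whereas PSMB8 fell on both scales. PSMB9 was not called in DCVC against Control, and at equal totals PSMB10 was a called rise in DCVC_LPS against LPS. PSMB5 had 2449, 2643 and 2737 normalized counts in DCVC_LPS, 2146, 2310.2 and 2437 in LPS, 1913, 1988 and 2241 in DCVC and 1472, 1561 and 1621 in Control libraries. The groups lay in that order from high to low by median, and neither DCVC_LPS and LPS nor DCVC and Control values overlapped. PSMB5 rose by 0.19 ± 0.05 in DCVC_LPS against LPS and by 0.39 ± 0.05 in DCVC against Control. PSMB6 had 1013, 1092 and 1184 in DCVC_LPS, 742, 813 and 861 in LPS, 819, 902 and 1027 in DCVC and 473, 587 and 711 in Control libraries. PSMB6 rose by 0.43 ± 0.08 in DCVC_LPS against LPS and by 0.62 ± 0.08 in DCVC against Control, without overlap in either. PSMB7 had 2583, 2892 and 3140.2 in DCVC_LPS, 1656, 2005 and 2194 in LPS, 2281, 2406 and 2733 in DCVC and 1306, 1468 and 1678 in Control libraries. PSMB7 rose by 0.54 ± 0.07 in DCVC_LPS against LPS and by 0.74 ± 0.07 in DCVC against Control, also without overlap. The limma adjusted p of these 6 rises was at most 0.000789, and all 6 were called at equal totals too. The 3 rises in LPS against Control, of 0.56, 0.45 and 0.43 for PSMB5, PSMB6 and PSMB7, were 0.09, -0.02 and -0.05 at equal totals, and none was then called.

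Per kilobase of annotated exon, a rough scale for levels of different genes, PSMB8 averaged 570.2 normalized counts in DCVC_LPS, 1462 in LPS, 635 in DCVC and 1071 in Control libraries. PSMB5 averaged 1488, 1306, 1155 and 883 per kilobase in the same order of groups. By library, PSMB8 stood above PSMB5 per kilobase in 0 of 6 DCVC_LPS, 5 of 6 LPS, 0 of 6 DCVC and 6 of 6 Control libraries. PSMB9 averaged less than PSMB6, at 222 against 753 in DCVC_LPS, 539.7 against 559 in LPS, 297 against 628 in DCVC and 348 against 410.3 in Control libraries, but letter F had PSMB9 above PSMB6 in LPS and in Control. The length is that of all annotated exons merged, which is longer than a transcript by an amount that differs between genes. The order of different genes on this scale depends on it. Before division by length, the median ratio of PSMB9 to PSMB6 was 0.572 in DCVC_LPS, 1.90 in LPS, 1.02 in DCVC and 1.72 in Control libraries.

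**Figure D2:**
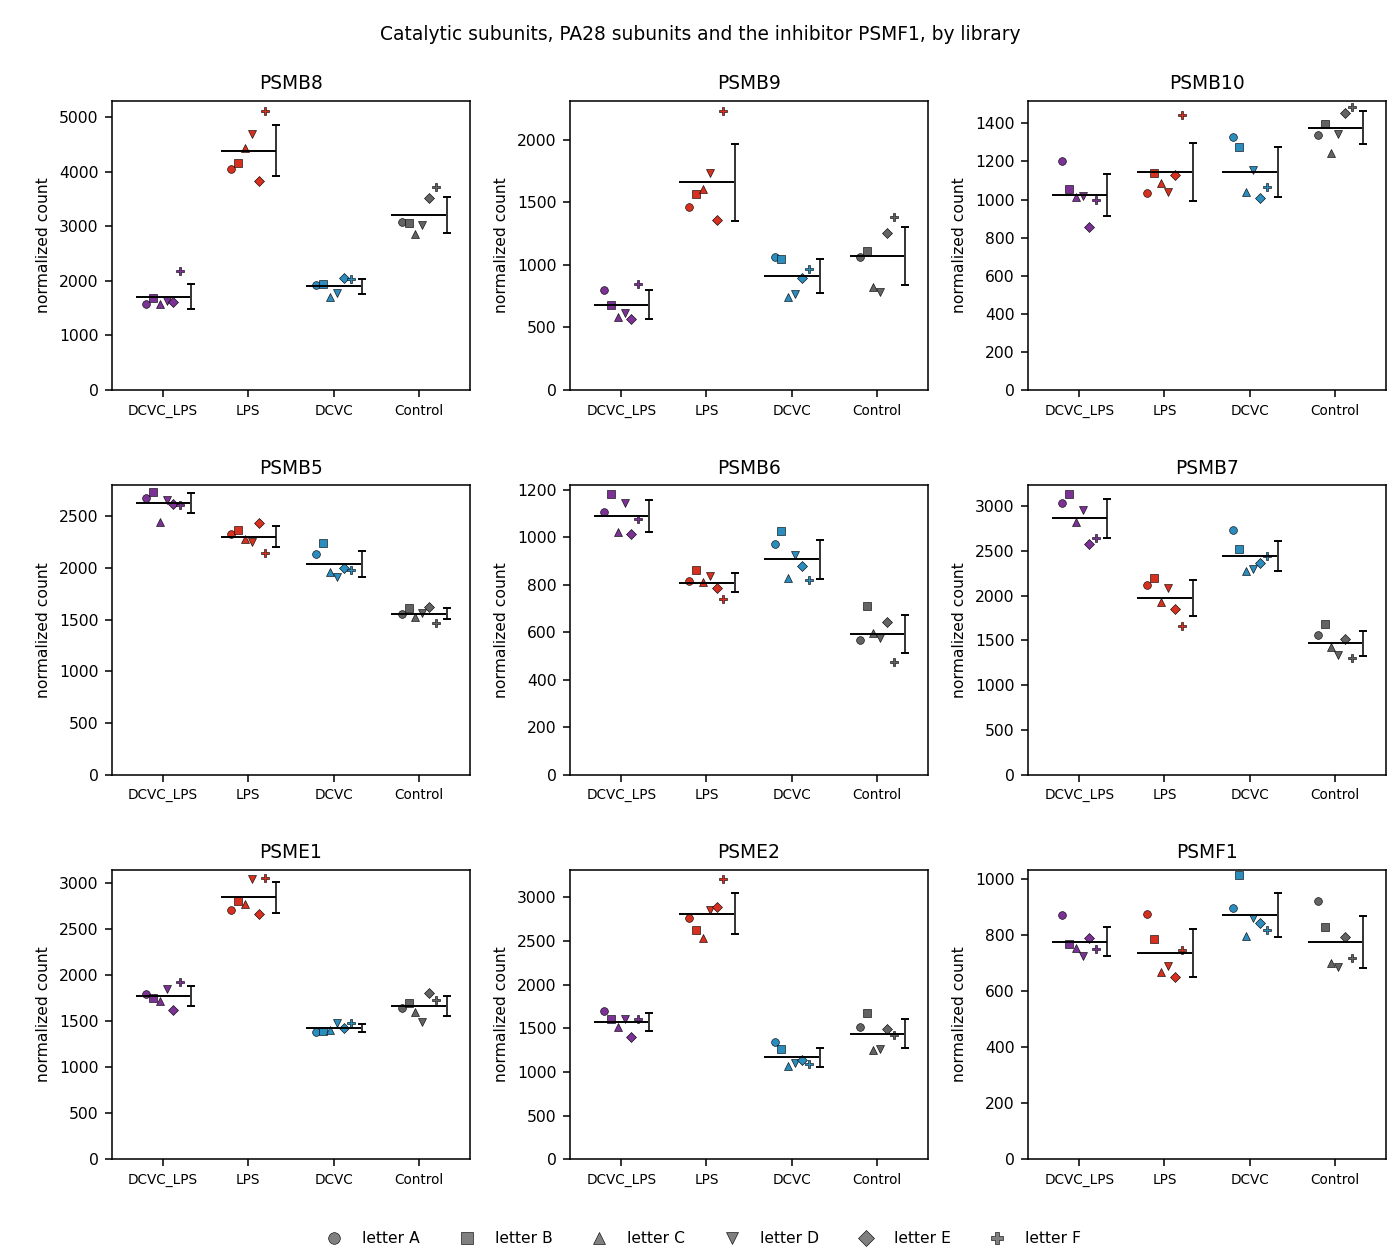
Each panel plots the normalized counts of a gene in each of 24 libraries, by group on the x axis, with symbols for the letters, a line at the mean and a bar of 1 SD. PSMB5, PSMB6 and PSMB7 are highest in DCVC_LPS libraries, and PSMB8, PSMB9, PSME1 and PSME2 are highest in LPS libraries.

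The promoters of the immunoproteasome subunits and of PSME1 and PSME2, which are known to be induced by interferon, are shown with that of the lid gene PSMD3, which rose with DCVC. Sequences are from RefSeq (GRCh38.p14) and run from 250 bases before to 50 bases after the start. Capitals mark letters of the searched motifs on either strand. These were the interferon-stimulated response core (GAAA, any 2 bases and GAAA again), the gamma-activated site core TTCNNNGAA, the antioxidant response core TGACNNNGC, the CCAAT box CCAAT and the kB site.
PSMB8, at chr6:32843998-32844297 on the minus strand, 1 of 2 windows in the table, shown because it holds more of the searched motifs. The other holds none of the interferon-stimulated or gamma-activated cores.
PSMB8: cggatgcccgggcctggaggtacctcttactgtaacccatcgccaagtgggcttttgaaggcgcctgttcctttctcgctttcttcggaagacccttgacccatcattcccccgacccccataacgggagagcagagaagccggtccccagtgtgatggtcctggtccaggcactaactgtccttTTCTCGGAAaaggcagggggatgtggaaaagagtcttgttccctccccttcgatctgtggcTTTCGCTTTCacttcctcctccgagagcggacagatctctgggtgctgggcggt
PSMB9, at chr6:32853942-32854241 on the plus strand.
PSMB9: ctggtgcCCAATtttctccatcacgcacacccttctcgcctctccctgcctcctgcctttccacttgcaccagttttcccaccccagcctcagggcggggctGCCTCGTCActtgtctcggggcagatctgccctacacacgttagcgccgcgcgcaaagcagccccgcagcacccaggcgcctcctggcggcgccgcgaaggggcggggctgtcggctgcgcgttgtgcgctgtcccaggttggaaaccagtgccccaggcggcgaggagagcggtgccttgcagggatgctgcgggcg
PSMB10, at chr16:67936801-67937100 on the minus strand.
PSMB10: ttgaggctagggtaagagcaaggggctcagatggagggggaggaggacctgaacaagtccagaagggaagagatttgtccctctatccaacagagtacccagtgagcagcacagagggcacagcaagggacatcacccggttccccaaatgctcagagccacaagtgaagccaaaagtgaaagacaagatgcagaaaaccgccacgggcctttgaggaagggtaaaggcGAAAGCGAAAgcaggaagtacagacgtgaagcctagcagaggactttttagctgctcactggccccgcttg
PSME1, at chr14:24135944-24136243 on the plus strand.
PSME1: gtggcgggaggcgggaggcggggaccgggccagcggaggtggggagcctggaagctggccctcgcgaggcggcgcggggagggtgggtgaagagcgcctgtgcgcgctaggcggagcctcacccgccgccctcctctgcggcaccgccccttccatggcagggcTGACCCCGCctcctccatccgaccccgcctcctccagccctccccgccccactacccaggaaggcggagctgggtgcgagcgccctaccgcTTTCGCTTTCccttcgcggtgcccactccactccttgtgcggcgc
PSME2, at chr14:24146561-24146860 on the minus strand.
PSME2: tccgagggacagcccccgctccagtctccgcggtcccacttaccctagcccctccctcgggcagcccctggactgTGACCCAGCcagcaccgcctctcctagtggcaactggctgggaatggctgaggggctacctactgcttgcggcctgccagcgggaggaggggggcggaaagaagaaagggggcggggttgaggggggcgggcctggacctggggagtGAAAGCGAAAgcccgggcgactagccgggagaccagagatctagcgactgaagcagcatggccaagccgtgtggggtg
PSMD3, at chr17:39980557-39980856 on the plus strand.
PSMD3: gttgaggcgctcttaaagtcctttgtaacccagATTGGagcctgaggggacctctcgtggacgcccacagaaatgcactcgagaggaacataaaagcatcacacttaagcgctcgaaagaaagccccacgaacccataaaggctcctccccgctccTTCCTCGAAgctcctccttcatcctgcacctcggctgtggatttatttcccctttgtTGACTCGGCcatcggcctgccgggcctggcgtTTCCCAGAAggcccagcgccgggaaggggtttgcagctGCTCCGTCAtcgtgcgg

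The interferon-stimulated core began 4 bases before the start in PSMB8, 21 before in PSMB10, 28 before in PSME2 and 6 bases past it in PSME1. In PSMB8 it ran across the start, and the PSMB9 window held none. PSMA4, PSMB4 and PSMG4 also held it, so 7 of the 41 members with a promoter in the table (17.1%) did, and 4.38% of all 27305 genes in the table did, counting a gene when any of its windows held it. The antioxidant response core was found in 15 of 41 members (36.6%), in PSMD3 at 2 places, and in 16.1% of all genes. The gamma-activated core was found in 8 of 41 members (19.5%) and 9.38% of all genes, the CCAAT box in 19 (46.3%) and 39.7%, and the kB site in 2 (4.88%) and 13.3%. A match is a run of letters and not a measured site. PSMB8 and PSMB9 are neighbours on chromosome 6, PSMB8 at 32840717 to 32844703 on the minus strand and PSMB9 at 32844136 to 32859585 on the plus strand (GENCODE 29), with TAP1, a subunit of the peptide transporter that feeds MHC class I, between 32845209 and 32853978 on the minus strand. The RefSeq window shown for PSMB9 belongs to a start inside these bounds, beside that end of TAP1 and not beside PSMB8.

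The proteasome activators rose with LPS, and in cells given DCVC before LPS they were lower. PSME1 had 1617, 1774 and 1924 normalized counts in DCVC_LPS, 2667, 2788 and 3057 in LPS, 1384, 1413 and 1475 in DCVC and 1490.3, 1669 and 1806 in Control libraries. PSME2 had 1397, 1605 and 1702 in DCVC_LPS, 2536, 2807 and 3205 in LPS, 1064, 1118 and 1337 in DCVC and 1249, 1459 and 1678 in Control libraries. In both genes the LPS libraries stood above all others. PSME1 rose by 0.78 ± 0.05 (limma adjusted p = 1.08e-12) in LPS against Control and PSME2 by 0.97 ± 0.08 (limma adjusted p = 1.62e-11). In DCVC_LPS against LPS, PSME1 fell by a log2 change of -0.68 ± 0.05 (limma adjusted p = 3.37e-11) and PSME2 by -0.84 ± 0.08 (limma adjusted p = 5.24e-10), and these 4 calls held at equal totals. The falls in DCVC against Control, -0.22 ± 0.05 for PSME1 and -0.30 ± 0.08 for PSME2, were 0.03 and -0.05 at equal totals and were then not called.

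PSME3, which forms the nuclear PA28-gamma cap, had 4570.0, 4871 and 5074 normalized counts in DCVC_LPS, 6625, 7111 and 7851 in LPS, 2898, 3117 and 3325 in DCVC and 2475, 2582 and 2909 in Control libraries. It rose by 1.46 ± 0.05 (limma adjusted p = 7.29e-18) in LPS against Control and fell by a log2 change of -0.56 ± 0.05 (limma adjusted p = 1.20e-09) in DCVC_LPS against LPS, without overlap in either comparison. PSME4, the PA200 activator, had 3016, 3062 and 3229 in DCVC_LPS, 3221, 3540.2 and 3706 in LPS, 1936, 2191 and 2433 in DCVC and 1408, 1581 and 1697 in Control libraries. PSME4 rose by 1.15 ± 0.06 (limma adjusted p = 6.52e-15) in LPS against Control. Its change in DCVC_LPS minus LPS was -0.17 ± 0.06 (limma adjusted p = 0.0134), but 0.26 and called as a rise at equal totals. PSMF1, the proteasome inhibitor PI31, had 726, 762 and 874 in DCVC_LPS, 651, 719 and 875 in LPS, 796, 853 and 1015 in DCVC and 687, 755 and 924 in Control libraries, and all groups overlapped. No comparison called PSMF1 on the deposited scale, with log2 changes between -0.16 and 0.17. With the letter as a block, DCVC minus Control was called at an adjusted p of 0.0086 and DCVC_LPS minus DCVC at 0.0121, and at equal totals PSMF1 was called in each of the 4 comparisons of groups.

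Over all members, 46 were tested, and PSMA8, the testis form of an alpha subunit, had 0 reads in all 24 libraries. In LPS against Control 40 of 46 rose and 4 fell, where 37.8% of all tested genes rose and 40.6% fell. The median log2 change was 0.47 over the members and -0.03 over all tested genes. At equal totals 16 rose and 17 fell, with medians of -0.004 over members and -0.50 over all genes, of which 22.4% rose and 59.5% fell. In DCVC against Control 31 of 46 rose and 5 fell, where 27.5% of all genes rose and 32.2% fell, with medians of 0.27 over members and -0.03 over all genes. At equal totals 40 rose and 1 fell, where 46.1% of all genes rose and 20.1% fell, with medians of 0.52 over members and 0.22 over all genes.

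In DCVC_LPS against LPS 22 of 46 members rose and 12 fell, where 33.3% of all genes rose and 39.4% fell, with medians of 0.12 over members and -0.07 over all genes. At equal totals 37 rose and 6 fell, where 54.5% of all genes rose and 21.9% fell, with medians of 0.55 over members and 0.36 over all genes. In DCVC_LPS against DCVC 31 rose and 3 fell (5 fell with the letter as a block), where 29.9% of all genes rose and 32.2% fell. At equal totals 11 rose and 15 fell there, where 16.3% of all genes rose and 52.7% fell. The medians were 0.25 over members and -0.03 over all genes on the deposited scale and -0.05 and -0.33 at equal totals. Members made up 0.624% to 0.640% of reads in DCVC_LPS, 0.431% to 0.458% in LPS, 0.602% to 0.646% in DCVC and 0.411% to 0.451% in Control libraries, so the libraries with DCVC held a larger share than any without it. The values of the compared groups did not overlap for 33 members in LPS against Control (56.8% of all genes), 28 in DCVC against Control (36.5%), 25 in DCVC_LPS against LPS (51.7%) and 26 in DCVC_LPS against DCVC (45.1%). Within the letter pairs A and B, C and D, and E and F, whose libraries deviated together, the members raised numbered 34, 37 and 32 in LPS against Control, 28, 32 and 22 in DCVC against Control, and 21, 21 and 15 in DCVC_LPS against LPS. Of all genes, 36.6%, 37.3% and 32.9% were raised in these pairs in LPS against Control, 25.2%, 28.2% and 16.5% in DCVC against Control, and 31.2%, 34.4% and 24.8% in DCVC_LPS against LPS. The members lowered in these pairs numbered 4, 4 and 2 in LPS against Control, 3 in each pair in DCVC against Control, and 11, 12 and 10 in DCVC_LPS against LPS. Of all genes, 37.7%, 40.1% and 34.4% were lowered in LPS against Control, 31.5%, 34.1% and 23.7% in DCVC against Control, and 39.5%, 39.7% and 32.9% in DCVC_LPS against LPS.

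**Figure D3:**
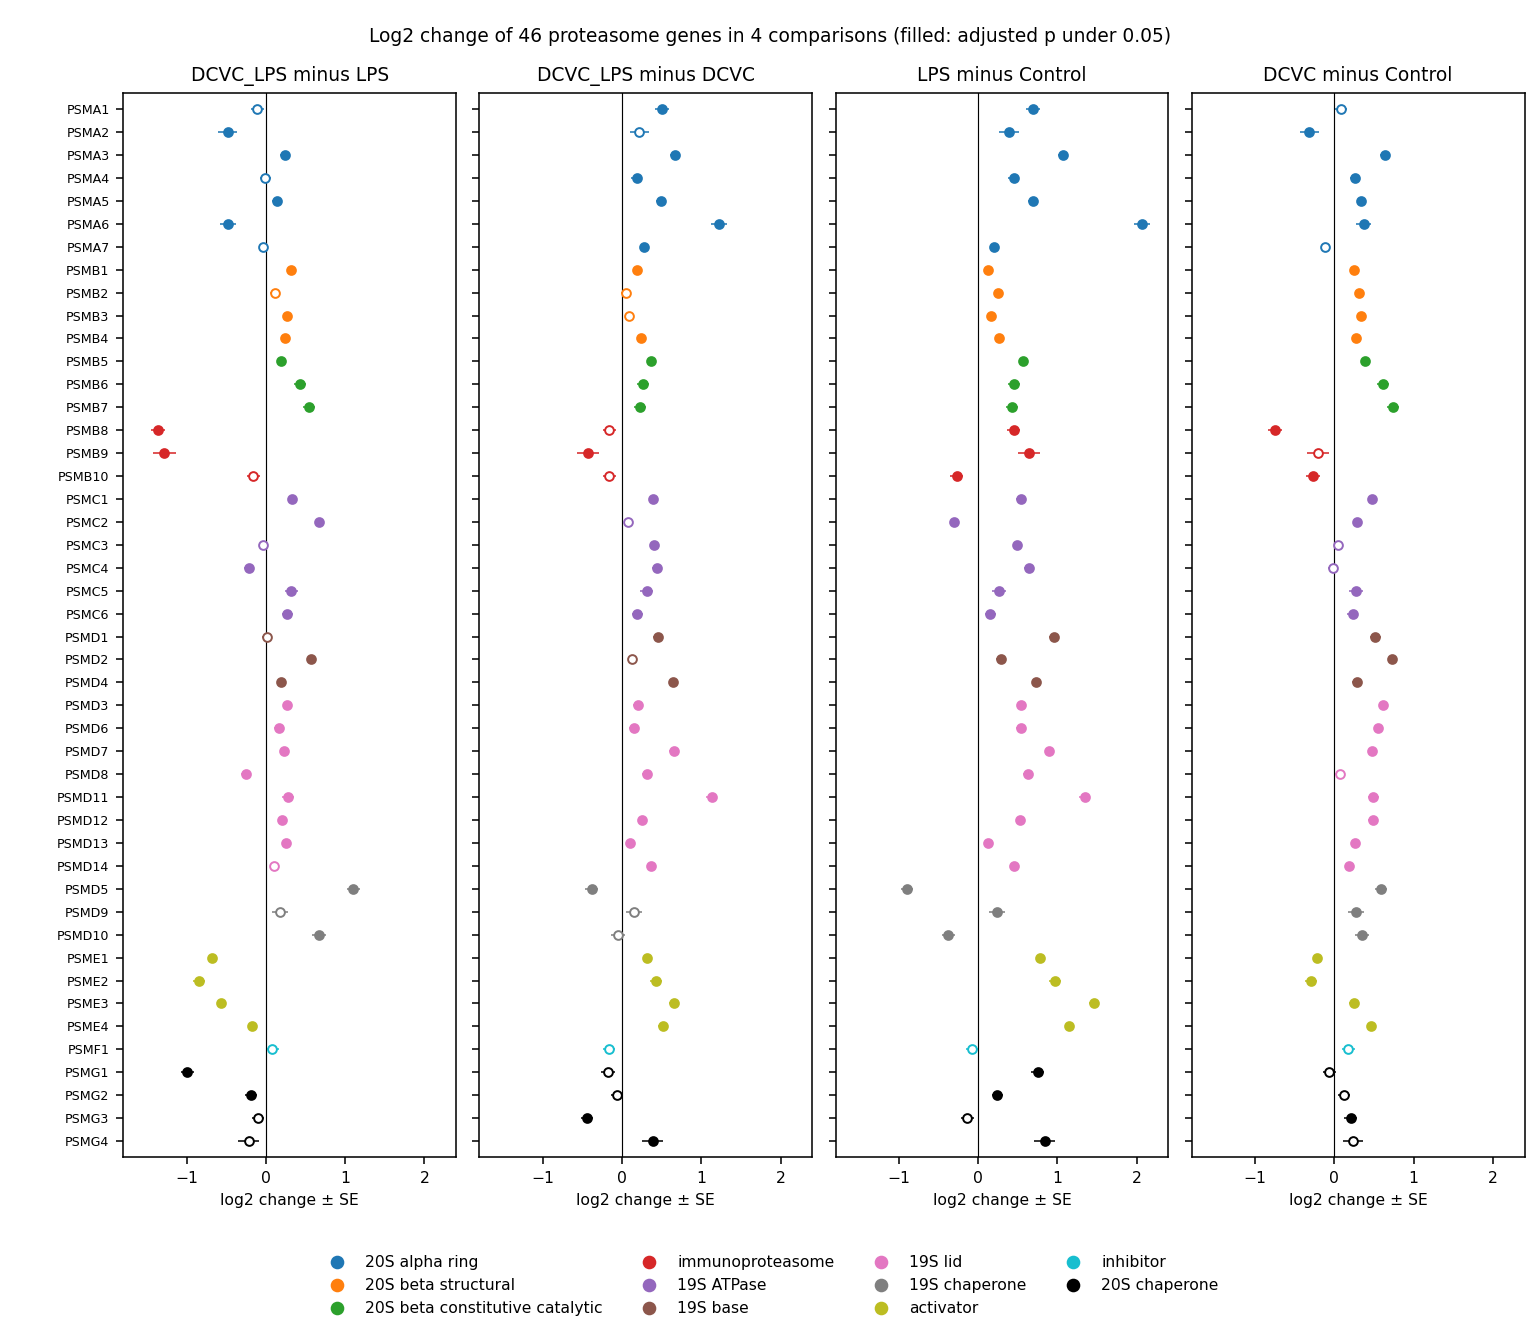
Each panel plots the log2 change ± SE of 46 members in a comparison, on the deposited scale, coloured by role, with filled points for an adjusted p under 0.05. PSMB8 and PSMB9 lie furthest to the left in DCVC_LPS minus LPS at -1.36 and -1.28, PSMD5 furthest to the right at 1.11, and PSMA6 furthest to the right in LPS minus Control at 2.07.

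In the rings of the core, all 7 tested alpha subunits and all 4 structural beta subunits rose in LPS against Control, with medians of 0.69 and 0.20, but at equal totals 4 alpha subunits rose and 1 fell and the 4 structural beta subunits fell. Of all tested genes 37.8% rose and 40.6% fell in that comparison, and 22.4% rose and 59.5% fell at equal totals. PSMA6 had 575, 649 and 798 normalized counts in DCVC_LPS, 837, 904 and 1010.1 in LPS, 227, 289.8 and 332 in DCVC and 183, 222 and 256 in Control libraries. It rose by 2.07 ± 0.10 (limma adjusted p = 1.47e-15) in LPS against Control and by 1.22 ± 0.10 (limma adjusted p = 1.23e-10) in DCVC_LPS against DCVC, and fell by a log2 change of -0.48 ± 0.10 (limma adjusted p = 0.00016) in DCVC_LPS against LPS, which at equal totals was -0.05 and not called. The 6 LPS libraries lay above all others, and DCVC_LPS libraries above DCVC and Control libraries. PSMA3 had 4021, 4392 and 4834 in DCVC_LPS, 3448, 3801 and 3985 in LPS, 2452, 2809 and 3112 in DCVC and 1611, 1792 and 1898 in Control libraries. Its values in LPS and Control libraries did not overlap. PSMA3 rose by 1.07 ± 0.06 in LPS against Control, by 0.64 ± 0.06 in DCVC against Control and by 0.67 ± 0.06 in DCVC_LPS against DCVC. PSMA2 had 56.2, 65.8 and 79.3 in DCVC_LPS, 74.3, 94.7 and 111 in LPS, 47.7, 60.3 and 67.4 in DCVC and 59.8, 72.2 and 84.2 in Control libraries. Its fall in DCVC against Control, -0.32 ± 0.12 (limma adjusted p = 0.0321), was -0.07 and not called at equal totals, and it lost its call without letter A, C, E or F, at adjusted p between 0.0750 and 0.114. PSMA6, PSMA1 and PSMA2 share 14.1%, 24.7% and 14.6% of their exon bases with another gene on the same strand, so reads from those parts could have been split or set aside and their values are uncertain. The structural beta subunits PSMB1, PSMB2, PSMB3 and PSMB4 rose together in DCVC against Control, by 0.25, 0.31, 0.34 and 0.27. Of all tested genes 27.5% rose there.

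In the regulatory cap, 5 of 6 ATPases, all 3 base subunits and all 8 lid subunits rose in LPS against Control, and 4 ATPases, 3 base and 7 lid subunits rose in DCVC against Control with none falling. At equal totals 1 ATPase, 2 base and 3 lid subunits rose with LPS and 3 ATPases, 1 base and 1 lid subunit fell, whereas 6, 3 and 8 rose with DCVC. Of all tested genes 37.8% rose and 40.6% fell with LPS, and 27.5% rose and 32.2% fell with DCVC. At equal totals 22.4% of them rose and 59.5% fell with LPS, and 46.1% rose and 20.1% fell with DCVC. PSMD11, a lid scaffold subunit, had 3606, 3678 and 3812 normalized counts in DCVC_LPS, 2569, 3181 and 3344 in LPS, 1537, 1655 and 1877 in DCVC and 999, 1225 and 1352 in Control libraries. The groups of PSMD11 did not overlap in any of the 4 comparisons. PSMD11 rose by 1.34 ± 0.07 (limma adjusted p = 7.67e-15) in LPS against Control and by 1.13 ± 0.07 (limma adjusted p = 8.18e-13) in DCVC_LPS against DCVC. PSMD7, another lid subunit, averaged 4307 ± 102 in DCVC_LPS and 2744 ± 81.7 in DCVC libraries (SD, n = 6), a rise of 0.65 ± 0.05. PSMD2, the base scaffold that docks ubiquitin receptors, had 7922, 8602 and 9376 in DCVC_LPS, 5243, 5789.5 and 6346 in LPS, 7525, 7765 and 8523 in DCVC and 4248, 4724 and 5324 in Control libraries. PSMD2 rose by 0.57 ± 0.06 (limma adjusted p = 3.80e-09) in DCVC_LPS against LPS and by 0.73 ± 0.06 (limma adjusted p = 1.68e-10) in DCVC against Control. The lid subunit PSMD3 averaged 3885 ± 249 in DCVC and 2529 ± 165 in Control libraries, a rise of 0.62 ± 0.06.

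PSMC2 was the 1 ATPase of 6 that fell with LPS on the deposited scale, and at equal totals PSMC5 and PSMC6 fell too. It had 4231, 4561 and 4793 normalized counts in DCVC_LPS, 2588, 2907 and 2978 in LPS, 4067, 4219 and 4819 in DCVC and 3346, 3526 and 3758 in Control libraries. It fell by a log2 change of -0.30 ± 0.05 (limma adjusted p = 5.49e-06) in LPS against Control and rose by 0.67 ± 0.05 (limma adjusted p = 1.55e-11) in DCVC_LPS against LPS, and LPS libraries lay below all others. PSMC1 shares 75.8% of its exon bases with NRDE2 on the opposite strand, so without a stated strand setting its reads could include those of NRDE2.

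Of the 3 chaperones that assemble the cap, PSMD5, PSMD9 and PSMD10, all rose in DCVC against Control, also at equal totals, and 1 rose and 2 fell in LPS against Control, where all 3 fell at equal totals. The 4 chaperones of the core, PSMG1 to PSMG4, were all called below 0 in the interaction, but at equal totals 1 of them was. The interaction call of PSMG3 was also lost without letter A, B, D or E, at limma adjusted p between 0.0510 and 0.105. In LPS against Control 3 of the 4 core chaperones rose and none fell, and at equal totals 2 rose and 2 fell. Of all tested genes 37.8% rose and 40.6% fell with LPS, and 22.4% rose and 59.5% fell at equal totals. With DCVC 27.5% of all genes rose, and 46.1% did at equal totals. The interaction was below 0 for 23.7% of all genes, and for 16.1% at equal totals. PSMD5, a chaperone of base assembly, had 631, 684 and 735 normalized counts in DCVC_LPS, 279, 309 and 409 in LPS, 829, 886 and 991 in DCVC and 545, 583 and 662 in Control libraries. No groups of PSMD5 overlapped in the 4 comparisons. It fell by a log2 change of -0.90 ± 0.08 (limma adjusted p = 1.12e-10) in LPS against Control and by -0.38 ± 0.08 (limma adjusted p = 0.000135) in DCVC_LPS against DCVC, and rose by 0.59 ± 0.08 (limma adjusted p = 5.51e-07) in DCVC against Control and by 1.11 ± 0.08 (limma adjusted p = 5.67e-12) in DCVC_LPS against LPS. PSMD10, or gankyrin, had 769, 858 and 1041 in DCVC_LPS, 447, 594 and 649 in LPS, 842, 913 and 1014 in DCVC and 679.7, 719 and 748 in Control libraries. The LPS libraries lay below all others. PSMD10 fell by a log2 change of -0.38 ± 0.09 (limma adjusted p = 0.000395) in LPS against Control and rose by 0.67 ± 0.09 (limma adjusted p = 2.15e-07) in DCVC_LPS against LPS. PSMG1, which pairs with PSMG2 to build the alpha ring, had 295, 376 and 413 in DCVC_LPS, 648, 722 and 759 in LPS, 362, 405 and 448 in DCVC and 371, 424 and 479 in Control libraries. PSMG1 rose by 0.75 ± 0.08 (limma adjusted p = 8.56e-09) in LPS against Control and fell by a log2 change of -0.99 ± 0.08 (limma adjusted p = 1.18e-10) in DCVC_LPS against LPS, with LPS libraries above all others. PSMG3 had 245, 271 and 304 in DCVC_LPS and 345, 364 and 409.7 in DCVC libraries, without overlap, and fell by a log2 change of -0.44 ± 0.08 (limma adjusted p = 2.38e-05) in DCVC_LPS against DCVC.

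**Figure D4:**
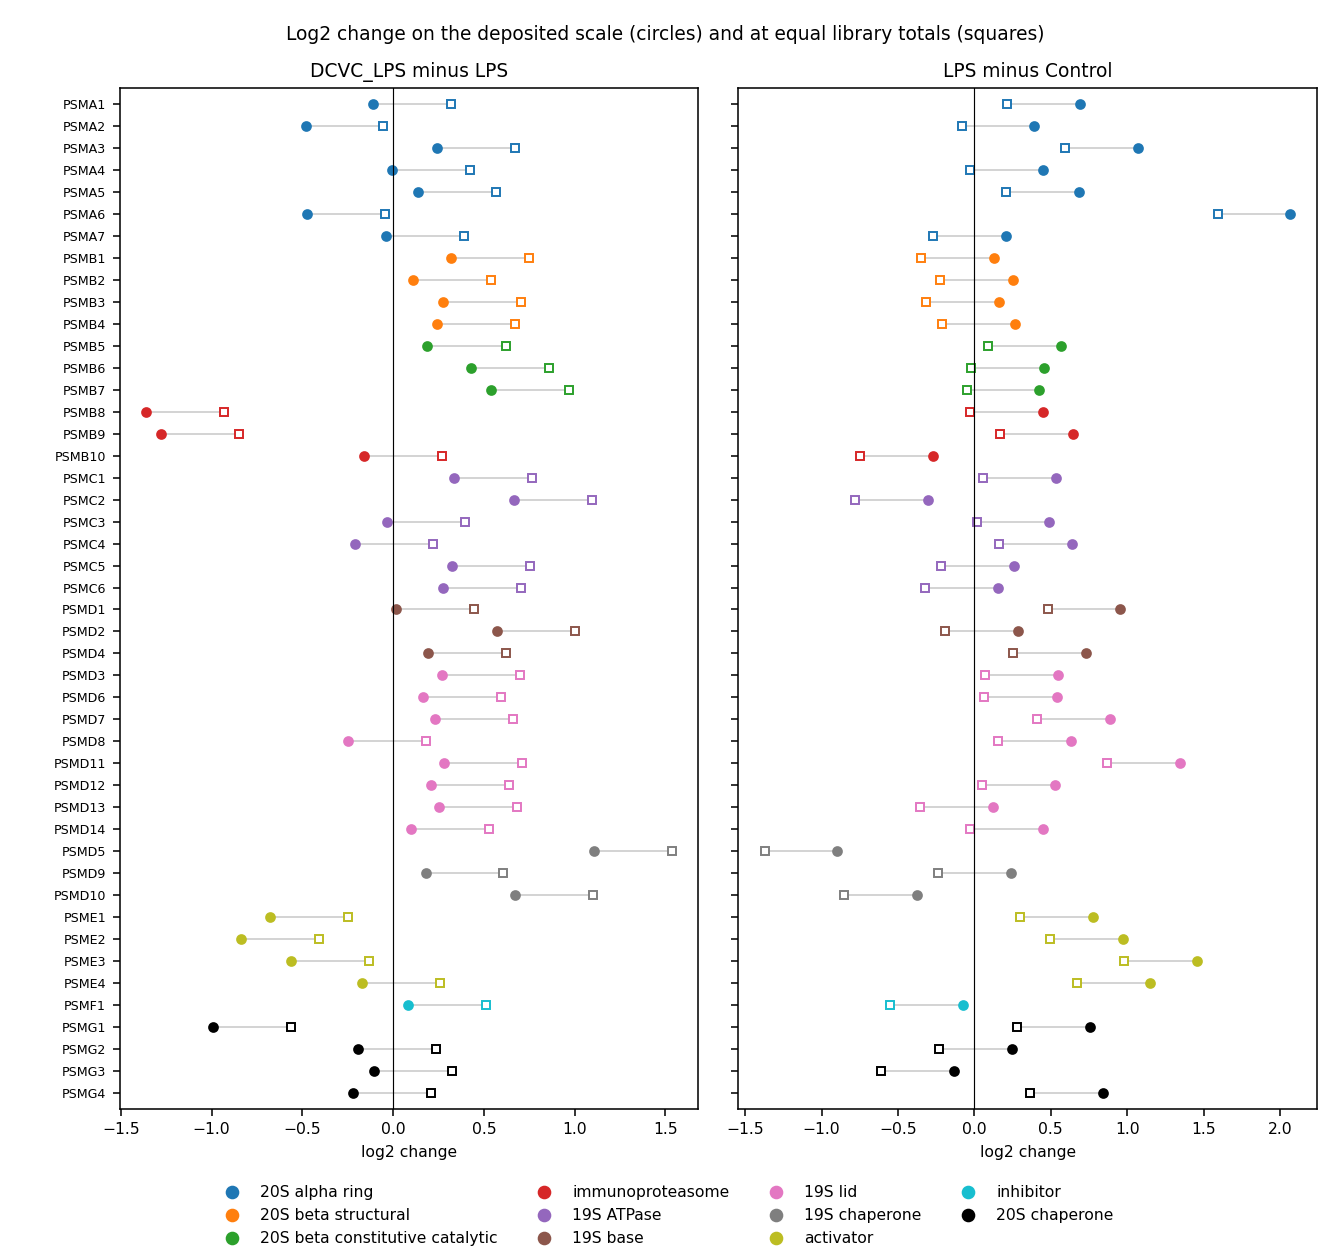
Each row is a member, coloured by role, with its log2 change on the deposited scale as a circle and at equal library totals as a square, for DCVC_LPS minus LPS on the left and LPS minus Control on the right. The squares lie right of the circles on the left and left of them on the right. PSMB8 and PSMB9 stay below 0 on both scales in DCVC_LPS minus LPS, and the 4 activators stay above 0 on both in LPS minus Control.

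The interaction, which is the LPS change with DCVC minus the LPS change without it, was called below 0 for 22 of 46 members and above 0 for 3, where 23.7% of all genes were lower and 22% higher. At equal totals 11 were lower and 6 higher, where 16.1% of all genes were lower and 33.1% higher. The lowest were PSMB9 at -1.07 ± 0.20 (limma adjusted p = 0.000117), PSMG1 at -0.93 ± 0.12 (limma adjusted p = 6.91e-07), PSMA6 at -0.84 ± 0.14 (limma adjusted p = 3.38e-05), PSME3 at -0.81 ± 0.08 (limma adjusted p = 9.40e-09) and PSME4 at -0.64 ± 0.09 (limma adjusted p = 1.61e-06). PSMB8 was at -0.61 ± 0.12 (limma adjusted p = 0.000172), PSME1 at -0.46 ± 0.07 (limma adjusted p = 2.10e-05) and PSME2 at -0.54 ± 0.11 (limma adjusted p = 0.000233), each with the direction in 6 of 6 letters, and these 8 calls held at equal totals. PSMD5 was highest at 0.51 ± 0.11 (limma adjusted p = 0.000483), followed by PSMC2 at 0.38 ± 0.07 (limma adjusted p = 0.000106) and PSMD10 at 0.32 ± 0.12 (limma adjusted p = 0.0352). The call of PSMD10 was lost without letter A, B, C or D, at limma adjusted p between 0.0629 and 0.101. Within letters E and F, which leave 2 libraries a group, PSMB8 at -0.42, PSMB9 at -0.84, PSME1 at -0.41 and PSMD10 at 0.14 were not called, and within letters A and B PSMD5 at 0.33 was not called. LPS minus Control and DCVC_LPS minus LPS share the LPS libraries, with opposite sign.

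Of 37 other genes of the ubiquitin-proteasome system, 22 rose and 8 fell in LPS against Control, 14 rose and 11 fell in DCVC against Control, 14 rose and 16 fell in DCVC_LPS against LPS, and 24 rose and 5 fell in DCVC_LPS against DCVC. Of all tested genes 37.8% rose and 40.6% fell, 27.5% rose and 32.2% fell, 33.3% rose and 39.4% fell, and 29.9% rose and 32.2% fell in these comparisons, and the shares of the 37 genes in DCVC_LPS against LPS, 37.8% and 43.2%, lay near those. At equal totals the same comparisons gave 12 and 18, 25 and 3, 26 and 4, and 12 and 13. On that scale 22.4% and 59.5% of all genes rose and fell, then 46.1% and 20.1%, 54.5% and 21.9%, and 16.3% and 52.7%. NFE2L1, a transcription factor that raises proteasome genes when the proteasome is inhibited, averaged 3643 ± 132 normalized counts in DCVC_LPS, 4124 ± 238 in LPS, 4058 ± 368 in DCVC and 5989 ± 509 in Control libraries (SD, n = 6). It fell by a log2 change of -0.54 ± 0.06 (limma adjusted p = 1.75e-08) in LPS against Control and by -0.56 ± 0.06 (limma adjusted p = 3.23e-08) in DCVC against Control. DDI2, the protease that releases NFE2L1, fell by a log2 change of -0.42 ± 0.11 in DCVC_LPS against DCVC, and NGLY1, the glycanase that acts on NFE2L1, fell by a log2 change of -0.86 ± 0.08 in LPS against Control and rose in the interaction by 0.60 ± 0.11. NFE2L2, the oxidative stress factor that reads antioxidant response elements, averaged 10139 ± 780.0 in DCVC_LPS, 13649 ± 791 in LPS, 2935 ± 267 in DCVC and 3089 ± 266 in Control libraries. NFE2L2 rose by 2.15 ± 0.07 (limma adjusted p = 4.02e-19) in LPS against Control, while DCVC minus Control gave -0.07 ± 0.07 (limma adjusted p = 0.354), or 0.18 and called at equal totals.

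SQSTM1, the receptor p62 that carries ubiquitinated cargo to autophagy, averaged 73367 ± 7222 normalized counts in DCVC_LPS, 25439.6 ± 5108 in LPS, 17462 ± 1499 in DCVC and 10046 ± 2149.8 in Control libraries. It rose in each comparison, by 1.55 ± 0.13 in DCVC_LPS against LPS and by 0.82 ± 0.13 in DCVC against Control. POMP, which matures the core, averaged 2331 ± 157 in DCVC_LPS, 2835 ± 332 in LPS, 1938 ± 148 in DCVC and 2549.6 ± 408 in Control libraries. It fell by a log2 change of -0.28 ± 0.09 in DCVC_LPS against LPS, a change of 0.15 at equal totals. PAAF1, which binds cap ATPases, averaged 433 ± 52.5 in DCVC_LPS, 215 ± 50.8 in LPS, 454 ± 21.2 in DCVC and 265 ± 34.6 in Control libraries. PAAF1 rose by 1.03 ± 0.12 (limma adjusted p = 6.01e-08) in DCVC_LPS against LPS. ZFAND5, ZFAND2A and PITHD1, which associate with the proteasome, rose in that comparison by 1.19 ± 0.07, 1.68 ± 0.11 and 0.97 ± 0.07, and UBE3C, a proteasome-bound ubiquitin ligase, fell by a log2 change of -1.04 ± 0.07.

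Of 10 genes of peptide presentation, 8 rose and 1 fell in LPS against Control, and 9 fell and none rose in DCVC_LPS against LPS, where 37.8% of all genes rose and 40.6% fell in the first and 33.3% rose and 39.4% fell in the second. At equal totals 7 rose and 2 fell in LPS against Control, and 7 fell and none rose in DCVC_LPS against LPS. Of all genes 22.4% rose and 59.5% fell in the first at equal totals, and 54.5% rose and 21.9% fell in the second. In DCVC against Control 1 rose and 3 fell, on both scales. There 27.5% of all genes rose and 32.2% fell, and 46.1% rose and 20.1% fell at equal totals. TAP1, the neighbour of PSMB9, had 5356, 6304 and 10412 normalized counts in DCVC_LPS, 16114, 21348 and 27174 in LPS, 2473, 2625 and 3209.6 in DCVC and 2342, 2561 and 3169 in Control libraries. LPS libraries lay above all others, and DCVC_LPS libraries lay above the DCVC and Control libraries. TAP1 rose by 2.998 ± 0.14 (limma adjusted p = 5.12e-16) in LPS against Control and fell by a log2 change of -1.67 ± 0.14 (limma adjusted p = 9.72e-11) in DCVC_LPS against LPS, and DCVC minus Control gave 0.04 ± 0.14 (limma adjusted p = 0.814). TAP2, its partner in the transporter and the neighbour of PSMB8, rose by 1.06 ± 0.07 (limma adjusted p = 1.51e-12) in LPS against Control and fell by a log2 change of -0.73 ± 0.07 (limma adjusted p = 3.50e-09) in DCVC_LPS against LPS.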

How the data were processed

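Poly-A RNA-seq was run on 24 libraries, and the deposited values are a signal, normalized counts. By their steps, the authors had divided whole reads by 1 factor for each library: 100% of values below 1000 reads came out whole to within 0.1 read, and higher values were not checked. In LPS library A 1 read was worth 0.991, too near 1 for its lowest values to tell apart from unscaled reads. Per the submitters' processing notes the tools were STAR, featureCounts 1.6.1, DESeq2 1.24.0, R 3.6.0, MultiQC 0.9 and FastQC 0.11.5, and the build hg38, with no role or order given. The sources used here do not give the annotation, strand setting or handling of reads with several hits. DCVC at 1 and 10 µM, which the protocols mention, was not analysed here.

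Entries without a name (33.56%, with 0.986% of values) were left out, values of 51 symbols on 2 entries were summed, and 13900 genes with a mean of at least 10 were tested. limma 3.58.1 (R 4.3.3, trend) was fitted to log2(value + 1) over all 24 libraries, with a mean per group, and p-values were Benjamini-Hochberg adjusted over all tested genes. A member was called raised or lowered at an adjusted p under 0.05. The pseudocount of 1 understates changes of low genes. Ratios were log2((a + 1)/(b + 1)) within a library, tested with exact permutation tests. Depth, at 18478618 to 30107819 reads, limits the lowest genes. Scripts were tested on simulated data.

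Libraries with the same letter deviated from their group means together: all 36 correlations were above 0.1 (0.134 to 0.539), and those between the letters of the pairs A and B, C and D, and E and F were 0.0522 to 0.464. The medians were 0.330 within a letter and 0.286 between the letters of such a pair. Among libraries of other groups, 20 of 24 libraries correlated best with one of their own letter. As read from the data, the samples group by pair of letters, and less sharply by single letter. Letters within such a pair of letters may not be independent of each other. The members, gene lists and alternatives were chosen with earlier results of these data known. Genes named are the catalytic subunits, PSME1, PSME2 and PSMF1, the 5 largest called member rises and falls per comparison, PSMA8, which was not tested, the 3 rises and 3 falls with the smallest adjusted p among other ubiquitin-proteasome genes, NFE2L1, NFE2L2, POMP, PAAF1, SQSTM1, TAP1 and neighbours of members. Some of these are given in the counts only. Gene bounds and exon overlaps are from GENCODE 29 on GRCh38, in which all 47 members were found. Alternatives were other pseudocounts, filters, scalings, edgeR 4.0.16 and DESeq2 1.42.0 on the recovered reads, the letter as a block, letter pairs, and leaving out each letter. The result of 1 gene looked at is not reported here.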

Additional observations from a re-analysis of the deposited data

Results flagged for a closer look

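In 5 of the 184 sets of 6 libraries (46 members in 4 groups) the gap between an extreme library and its nearest neighbour was above the critical value of Dixon's test, and chance alone gives about 1 in 20. PSMA5 in DCVC library A had 5301 normalized counts, against 4318 to 4633 in the other 5 libraries. PSMB8 in DCVC_LPS library F had 2176 normalized counts, against 1573 to 1689 in the other 5 libraries. PSMB10 in LPS library F had 1444 normalized counts, against 1035 to 1137 in the other 5 libraries. PSMC1 in DCVC library A had 4714 normalized counts, against 4079 to 4301 in the other 5 libraries. PSMC3 in DCVC library A had 4041 normalized counts, against 3541 to 3700.0 in the other 5 libraries. PSMA5, PSMC1 and PSMC3 share the same DCVC library, and the other 2 are of letter F.

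The LPS change differed between cells with and without DCVC, by the limma interaction term, for 25 of 46 members and for 45.7% of all tested genes. Listed are the 5 lowest members, those above 0, and any others called among the catalytic subunits, PSME1, PSME2 and PSMF1. The immunoproteasome subunits were PSMB8 at -0.61 and PSMB9 at -1.07 on the log2 scale, the constitutive PSMB5 at -0.20, and the activators were PSME1 at -0.46, PSME2 at -0.54, PSME3 at -0.81 and PSME4 at -0.64. The alpha subunit PSMA6 at -0.84 and the chaperone PSMG1 at -0.93 were also below 0. The interaction was above 0 for PSMC2 at 0.38, PSMD10 at 0.32 and PSMD5 at 0.51. For PSMB5 it was -0.02 at equal totals and not called, and it lost its call without letter A or C, at adjusted p = 0.0611 and 0.0605. For PSMD10 it lost its call without letter A, B, C or D, at adjusted p between 0.0629 and 0.101, and with no filter on low values, at 0.0566. The LPS change of the ratios also differed, by an exact sign-flip test, PSMB8 over PSMB5 by -0.41, PSMB9 over PSMB6 by -0.88 and PSMB10 over PSMB7 by 0.31. That test takes the letters as independent, which letters that deviated together may not be.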

How the results depend on the processing

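The scaling was the choice that moved most counts. At equal totals the members raised and lowered numbered 16 and 17 in LPS minus Control (40 and 4 on the deposited scale), 37 and 6 in DCVC_LPS minus LPS (22 and 12), 11 and 15 in DCVC_LPS minus DCVC (31 and 3), 6 and 11 in the interaction (3 and 22), and 1 was lowered in DCVC minus Control (5). TMM scaling gave 5 and 12 in the interaction. At equal totals the other ubiquitin-proteasome genes raised and lowered numbered 12 and 18 in LPS minus Control (22 and 8), 25 and 3 in DCVC minus Control (14 and 11), 26 and 4 in DCVC_LPS minus LPS (14 and 16), and 12 and 13 in DCVC_LPS minus DCVC (24 and 5), and 6 were lowered in the interaction (13), 8 with TMM. With the letter as a replicate block, members lowered in DCVC_LPS minus DCVC numbered 5 (3 without the block). Among the genes the rule names it changed only the calls of PSMB8, PSMD2, PSMB7, PSMD11, PSMF1, HSPB1 and UBB, which together gained 10.

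Within letter pairs, members lowered numbered 2 in LPS minus Control and 8 in the interaction in E and F, 3 in DCVC minus Control in each pair, and 6 in DCVC_LPS minus DCVC in A and B. The other ubiquitin-proteasome genes lowered numbered 5 in LPS minus Control and 6 in the interaction in E and F, where 3 were raised in the interaction, and 3 in DCVC_LPS minus DCVC in A and B and in E and F. Of all genes in E and F, 34.4% were lowered in LPS minus Control, and 11.4% were lowered and 9.22% raised in the interaction. In DCVC_LPS minus DCVC 29.2% of all genes were lowered in A and B and 25.2% in E and F. The ratio PSMB8 over PSMB5 was -0.59 in the interaction in C and D. PSMB9 over PSMB6 was 0.56 in LPS minus Control and -1.19 in the interaction in C and D. PSMB10 over PSMB7 was -0.77 in A and B and -1.28 in E and F in DCVC minus Control, -0.46 and -1.04 in DCVC_LPS minus LPS, and -0.29 in E and F in DCVC_LPS minus DCVC. Leaving out 1 letter kept the interaction of the ratios between -0.45 and -0.36 for PSMB8 over PSMB5, -0.95 and -0.81 for PSMB9 over PSMB6, and 0.27 and 0.35 for PSMB10 over PSMB7, all at an adjusted p of 0.0721, because 5 letters cannot reach the threshold in a sign-flip test. The other ubiquitin-proteasome genes lowered in DCVC_LPS minus DCVC then ranged from 3 (without letter C) to 5.

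Called changes that changed sign at equal totals are listed only for the genes the rule names. Others include the 4 structural beta subunits, called as rises in LPS minus Control and as falls there at equal totals. The listed changes in LPS minus Control became -0.084 for PSMA2, -0.022 for PSMB6, -0.052 for PSMB7, -0.029 for PSMB8, -0.19 for PSMD2, -0.11 for RPS27A, -0.32 for UCHL5 and -0.32 for UFD1. In DCVC_LPS minus LPS they became 0.038 for DDI2, 0.25 for NFE2L1, 5.66e-06 for NFE2L2, 0.15 for POMP and 0.26 for PSME4. In DCVC_LPS minus DCVC they became -0.030 for POMP, -0.030 for PSMB6, -0.067 for PSMB7, -0.10 for PSMD3 and -0.15 for UFD1, and in DCVC minus Control 0.031 for PSME1. In A and B, DDI2 was 0.18 in LPS minus Control and NFE2L2 0.016 in the interaction. The cause was not tested. Pseudocounts of 0.5 and 8, both filters, edgeR, DESeq2, the fit of only the 2 groups compared and, for the ratios, the mean of the 7 constitutive beta subunits as partner kept every count within 1.5 times and every ratio's call. With that partner the PSMB8 ratio in LPS minus Control, not called either way, was 0.13 (-0.12 with PSMB5). edgeR on the recovered reads called 10854 genes in LPS minus Control.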

Other observations

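Regulators of the presentation genes were looked at with their values known. IRF1, an interferon-responsive transcription factor, rose by 2.59 ± 0.16 (limma adjusted p = 2.15e-13) in LPS against Control and fell by a log2 change of -1.65 ± 0.16 (limma adjusted p = 2.08e-09) in DCVC_LPS against LPS. NLRC5, the transactivator of MHC class I genes, averaged 413 ± 121 normalized counts in DCVC_LPS, 1908 ± 630.2 in LPS, 737 ± 60.9 in DCVC and 1171 ± 93 in Control libraries (SD, n = 6). NLRC5 fell by a log2 change of -2.18 ± 0.16 (limma adjusted p = 1.73e-11) in DCVC_LPS against LPS and by -0.67 ± 0.16 (limma adjusted p = 0.0011) in DCVC against Control, and DCVC minus Control gave -0.04 ± 0.16 (limma adjusted p = 0.839) for IRF1.

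Library F had the highest log2 ratio of PSMB8 to PSMB5 in each of the 4 groups, at -0.26 in DCVC_LPS, 1.25 in LPS, 0.04 in DCVC and 1.34 in Control libraries. The same letter had the highest ratio of PSMB9 to PSMB6 in each group, at -0.35 in DCVC_LPS, 1.58 in LPS, 0.24 in DCVC and 1.54 in Control libraries. For PSMB10 over PSMB7 it was highest in LPS at -0.20 and in Control at 0.19. In DCVC that ratio was -1.19 in F and highest in B at -0.98, and in DCVC_LPS -1.40 in F and highest in A at -1.33.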
